A study of Mus musculus with 2 samples.

Results

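The nuclear genes of respiratory complexes II to V were examined in regulatory T cells (Tregs) with and without the zinc finger protein Zfp335. Members were all symbols equal to Sdha, Sdhb, Sdhc or Sdhd and all that start with Uqcr, Cox4 to Cox8 or Atp5, a choice by name that used no measured value. These were 47 of the 32285 genes listed, with 4 in complex II, 8 in complex III, 18 in complex IV and 17 in complex V. Of the 47 members, 43 had at least 50 transcript counts over both libraries.

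Respiratory complexes sit in the inner mitochondrial membrane. Complex II (succinate dehydrogenase) and complex III (cytochrome bc1) pass electrons toward cytochrome c, complex IV (cytochrome c oxidase) hands them to oxygen, and complex V (ATP synthase) uses the proton gradient that complexes III and IV help to build to make ATP. All of complex II is encoded in the nucleus, whereas complexes III, IV and V also hold subunits made from mitochondrial DNA, so they are built from products of both genomes.

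The data were 2 single-cell RNA libraries of splenic YFP+ 7AAD- cells from 7-day-old C57BL/6J mice, labelled as Tregs. The WT library came from Foxp3-Cre mice with intact Zfp335, and the KO library from Zfp335fl/flFoxp3-Cre mice, so both carried the Cre allele that reports Foxp3 as YFP and deletes floxed DNA in Foxp3-expressing cells. There was 1 library per genotype, the number of mice in each is not stated, and genotype and library cannot be told apart. No test between genotypes was therefore possible, and no p-value is given.

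In this droplet assay a molecule of RNA was counted once by its tag, the UMI, and assigned to a droplet by its barcode. WT held 14524 barcodes and KO 18134, with 64567991 and 65480052 UMIs. A barcode was kept from 300 detected genes upward if no more than 5% of its UMIs were mitochondrial, which left 8053 in WT and 13767 in KO. The mitochondrial filter removed 44.6% of WT and 24.1% of KO barcodes, and the kept WT barcodes were deeper, with medians of 5061 and 2713 UMIs. The libraries shared 29 kept barcode sequences. Levels are UMIs summed over the barcodes of a library and state, per 1000000 UMIs of that sum (CPM). Ranges in parentheses are 95% intervals that cover counting error only.

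Barcodes were grouped into 14 clusters with the members left out of the clustering genes. Named by fixed markers, 1 cluster was resting Treg-like (2832 WT and 5045 KO barcodes), 1 effector Treg-like (2383 and 92), 1 activated Treg-like (513 and 1296) and 1 S-phase-like cycling T (655 and 1060). Clusters 2 (180 and 4081) and 7 (882 and 90) held shallow T-lineage barcodes and are given by number. Haemoglobin genes were among their leading genes and made up 1.05% and 1.82% of their KO UMIs, and 0.350% and 0.541% in WT. Clusters 6 (18 and 967), 9 (12 and 350) and 14 (41 and 7) entered only the T-lineage total. Granule genes led clusters 6 and 9, and macrophage genes led cluster 14. All 5 Treg markers and all 7 T cell markers were detected in each named state of both libraries. Foxp3 itself was at 65.6 CPM in WT and 61.9 CPM in KO resting barcodes. Zfp335 was measured first as a check of the labels. Its level in resting barcodes was 9.05 CPM (104 UMIs) in WT and 1.10 CPM (23 UMIs) in KO, and over all T-lineage barcodes the KO to WT ratio was 0.0956 (0.0676 to 0.132). Whether the counted 3′ tag lies in the deleted part of the gene is not known here.

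**Figure D1:**
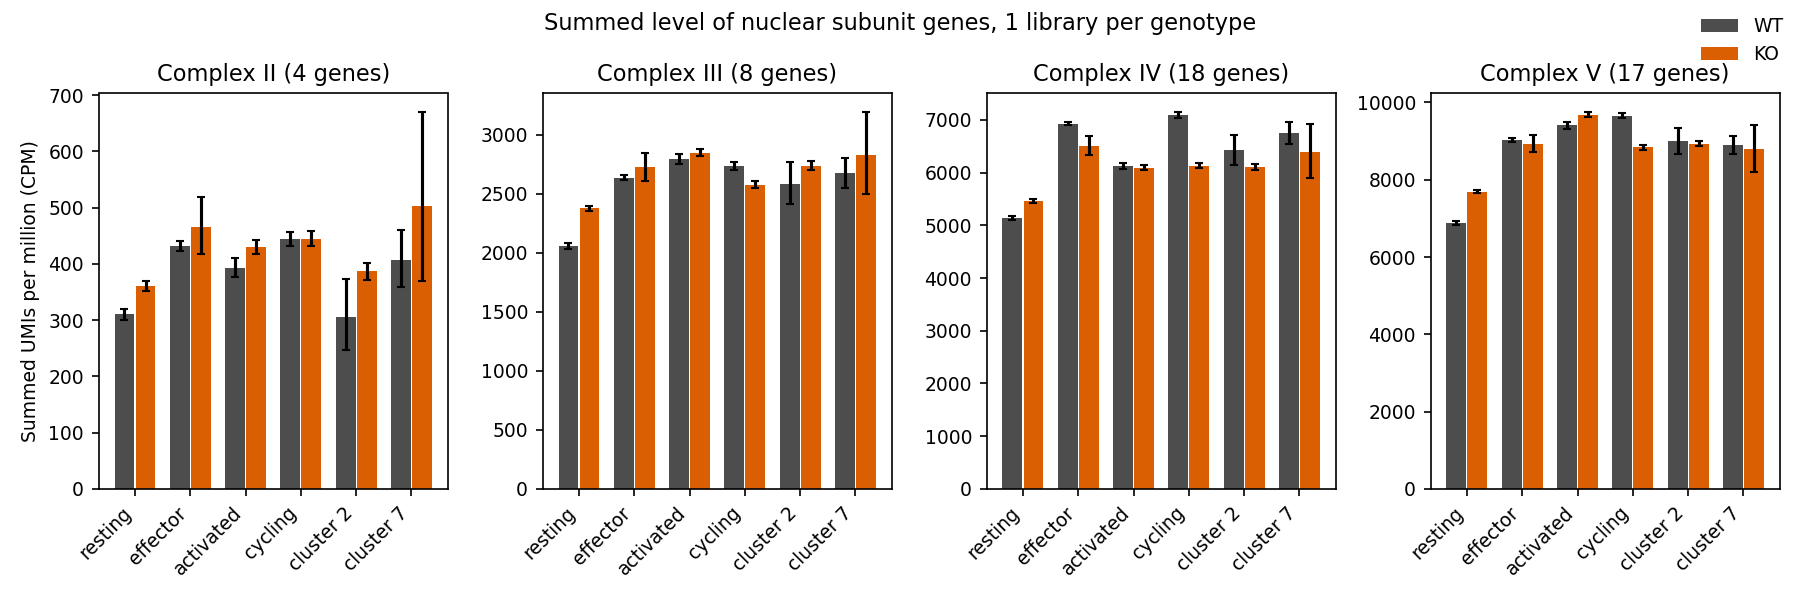
Summed level (CPM, linear axis from 0) of the nuclear genes of each complex in 6 T-lineage groups, with WT in grey and KO in orange. Bars are single libraries and whiskers are exact Poisson intervals. In the WT library the resting bar is the lowest of the 6 groups in complexes III, IV and V, and the KO bar stands above it in all 4 complexes.

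The first question was how the complexes differed between T cell states within a library. In WT, all 47 genes together summed to 14401 CPM in resting, 19030.1 CPM in effector, 18716 CPM in activated and 19936 CPM in cycling barcodes. In KO the same sums were 15888, 18641, 19059 and 17988 CPM. Resting barcodes were thus lowest in both libraries. The sum relative to resting was 1.32 (1.31 to 1.33) in effector, 1.30 (1.29 to 1.31) in activated and 1.38 (1.38 to 1.39) in cycling WT barcodes. In KO it was 1.17 (1.15 to 1.19), 1.20 (1.19 to 1.21) and 1.13 (1.13 to 1.14), smaller in each state than in WT. Both libraries' state ratios share their own resting sum, and that sum was itself higher in KO.

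Among the 41 members with enough UMIs, 31 were at least 25% above resting in WT effector barcodes (background 24.4% of all genes), 33 in activated (29.1%) and 31 in cycling (27.6%). In KO the counts were 16 of 41 in effector (29.8%), 22 of 42 in activated (26.7%) and 18 of 41 in cycling (26.3%). Atp5g1, which encodes the membrane c subunit that forms the rotor ring of ATP synthase, was 2.48 (2.37 to 2.60) times its resting level in WT and 2.15 (2.09 to 2.22) times in KO activated barcodes. Cox5a, a nuclear core partner of the oxidase, reached 2.18 times in WT and 1.55 times in KO cycling barcodes. Uqcr10, a small complex III subunit, reached 2.11 and 1.53 times in activated barcodes. In WT activated barcodes these 3 genes had the highest state ratios of all members.

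A few members went the other way. Cox7a2l, which encodes a COX7A-type protein, was at 0.480 (0.455 to 0.505) of its resting level in WT and 0.410 (0.392 to 0.429) in KO activated barcodes, and at 0.459 and 0.385 in cycling barcodes. Uqcrh, the hinge protein of complex III, was at 0.799 and 0.742 in cycling barcodes and at 1.00 and 0.884 in effector barcodes. At equal depth of 1000 UMIs per barcode the median barcode held 14 member UMIs in resting WT and 15 in resting KO. The medians were 18 and 16 in effector, 17 and 18 in activated and 18 and 17 in cycling barcodes, so the lower level of resting barcodes was also seen in single barcodes.

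The second question was how KO and WT resting barcodes differed, complex by complex. Resting KO barcodes carried more transcripts of all 4 complexes. The summed level of complex II was 310.4 CPM (3568 UMIs) in WT and 361 CPM (7548 UMIs) in KO, a KO to WT ratio of 1.16 (1.12 to 1.21). Complex III had a ratio of 1.16 (1.14 to 1.17), complex V of 1.12 (1.11 to 1.13) and complex IV, the smallest, of 1.06 (1.05 to 1.07). Of the 41 members with at least 50 UMIs, 38 had a ratio above 1, against 37.6% of all 10499 genes tested, and the median member ratio was 1.14 against 0.924 over all genes. At least 25% higher in KO were 9 members (background 8.15%), and at least 20% lower were 2 (background 29.5%). Haemoglobin made up 0.0530% of WT and 0.0998% of KO resting UMIs. All 12 erythroid markers were detected there in both libraries, with summed levels of 559 CPM in WT and 1018 CPM in KO, and all 11 granule markers, with 399 and 258 CPM. Of the 15 effector Treg markers 14 were lower in KO, with a sum of 1360.3 CPM in WT and 1067 CPM in KO, and the 10 resting Treg markers summed to 2426 CPM in WT and 2666 CPM in KO. The part of these markers in the result was not tested. With haemoglobin and other abundant RNA classes left out of the denominator, the ratio of complex III was 1.15.

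**Figure D2:**
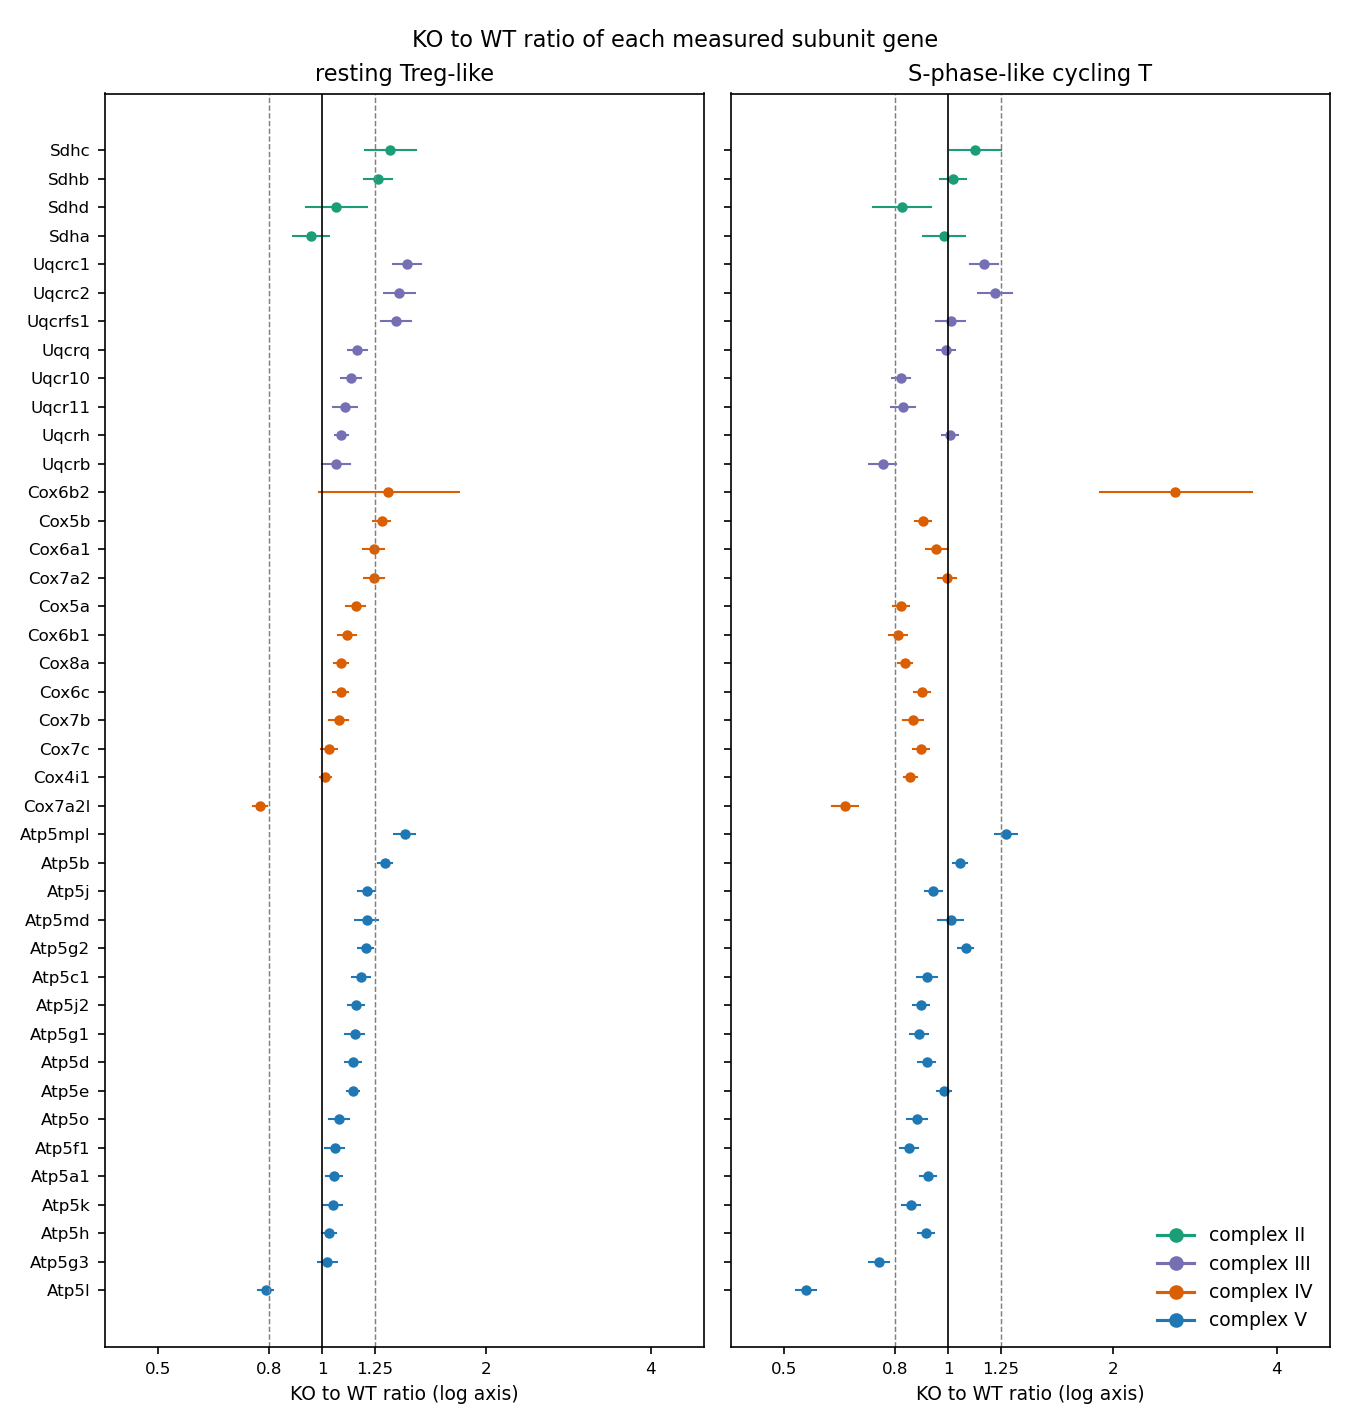
KO to WT ratio (log axis) of each of the 41 members with at least 50 UMIs, in resting Treg-like barcodes (left) and S-phase-like cycling T barcodes (right), sorted by complex and by the resting ratio. Points are ratios of single libraries, bars are counting intervals, the solid line is at 1 and dashed lines mark 20% lower and 25% higher. On the left 38 points lie right of 1 and Cox7a2l and Atp5l lie left of 0.8, and on the right 30 points lie left of 1.

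In complex II, Sdhb, the iron-sulfur subunit, was at 145 CPM (1661 UMIs) in WT and 183 CPM (3825 UMIs) in KO in resting barcodes, a ratio of 1.26 (1.19 to 1.34). Sdhc, which anchors the enzyme in the membrane and helps to hold its haem, had a ratio of 1.33 (1.20 to 1.48). The other membrane anchor, Sdhd, was at 31.8 CPM (365 UMIs) in WT and 33.7 CPM (706 UMIs) in KO, and its ratio of 1.06 (0.935 to 1.21) could not be told from 1 at this depth. Sdha, the flavin-bearing catalytic subunit, was at 91.7 CPM (1054 UMIs) in WT and 87.5 CPM (1832 UMIs) in KO, a ratio of 0.955 (0.884 to 1.03). The 2 subunits at least 25% higher were thus an iron-sulfur and an anchor subunit, and the catalytic subunit was not among them.

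In complex III the 3 highest ratios belonged to the 3 largest proteins among its members. Uqcrc1 (core protein 1; ENSMUSG00000025651, chromosome 9, 108936633 to 108949623, plus strand; GRCm38) was at 126 CPM (1450 UMIs) in WT and 180.4 CPM (3776 UMIs) in KO, a ratio of 1.43 (1.35 to 1.52). Its partner Uqcrc2 (core protein 2) had a ratio of 1.38 (1.30 to 1.48), and Uqcrfs1, the Rieske iron-sulfur protein that passes electrons to cytochrome c1, one of 1.37 (1.28 to 1.45). The 5 small subunits were between 1.06 for Uqcrb, a small matrix-side subunit, and 1.16 for Uqcrq, another small subunit. Uqcrb was at 155 CPM (1785 UMIs) in WT and 165 CPM (3446 UMIs) in KO.

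In complex IV, 12 of 18 members had enough UMIs and 11 of these were above 1. Cox5b, a zinc-binding matrix-side subunit, was at 374 CPM (4304 UMIs) in WT and 482 CPM (10084 UMIs) in KO, a ratio of 1.29 (1.24 to 1.33). Cox6b2, the testis-type form of subunit 6b, had the highest ratio of the complex, 1.32 (0.987 to 1.78), but rested on 67 UMIs in WT and 161 in KO and its interval reached below 1. Cox4i1, the common form of the subunit that binds ATP, was at 987 CPM (11339 UMIs) in WT and 1000.02 CPM (20929 UMIs) in KO with a ratio of 1.01. Cox7a2l (ENSMUSG00000024248, chromosome 17, 83501918 to 83517330, minus strand) was at 670.3 CPM (7704 UMIs) in WT and 517 CPM (10810 UMIs) in KO, a ratio of 0.771 (0.748 to 0.794) and the lowest of all members with enough UMIs.

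In complex V, 16 of 17 members were above 1. Atp5mpl (a small membrane proteolipid of ATP synthase; ENSMUSG00000021290, chromosome 12, 111961375 to 111966977, minus strand) was at 251 CPM (2881 UMIs) in WT and 355 CPM (7431 UMIs) in KO, the highest ratio of the complex at 1.42 (1.36 to 1.48). Atp5b, the catalytic beta subunit, had a ratio of 1.31 (1.27 to 1.35), whereas Atp5a1, the alpha subunit of the same catalytic head, had one of 1.05 (1.02 to 1.09). Atp5l, which encodes the membrane subunit g needed for dimers (ENSMUSG00000038717, chromosome 9, 44912557 to 44920742, minus strand), was at 526 CPM (6040 UMIs) in WT and 414 CPM (8665 UMIs) in KO, a ratio of 0.788 (0.762 to 0.814). Scaled to the median gene in place of the total, the ratios of Cox7a2l and Atp5l were 0.815 and 0.833, above 0.8. The study picked Atp5l on these libraries, so its value here is not independent evidence. It also reports lower Atp5l RNA in other mice, namely after tamoxifen-induced Zfp335 deletion and in heterozygous females. The largest and the smallest ratio of complex V were therefore both in small membrane subunits.

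The resting difference depended on how finely resting barcodes were divided. At a higher clustering resolution 3 clusters were resting Treg-like. The summed ratio of complexes II to V was 1.10 (1.10 to 1.11) over the whole state, and 1.04 (1.03 to 1.05) in finer cluster 2 (2238 WT and 1484 KO barcodes), 1.01 (1.00 to 1.03) in finer cluster 3 (395 and 2402) and 1.03 (1.01 to 1.06) in finer cluster 6 (106 and 1158). The KO library had most of its resting barcodes in the clusters with the higher level, since, within WT alone, finer cluster 3 stood at 16498 CPM, finer cluster 6 at 15269 CPM and finer cluster 2 at 13781 CPM. Combined over finer clusters by the Mantel-Haenszel method, an alternative added after the values were seen, the ratio was 1.11 for complex II, 1.08 for III, 1.00 for IV and 1.03 for V. Under it 26 of 41 members were above 1 and 6 were past these limits, 5 higher and 1 lower.

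**Figure D3:**
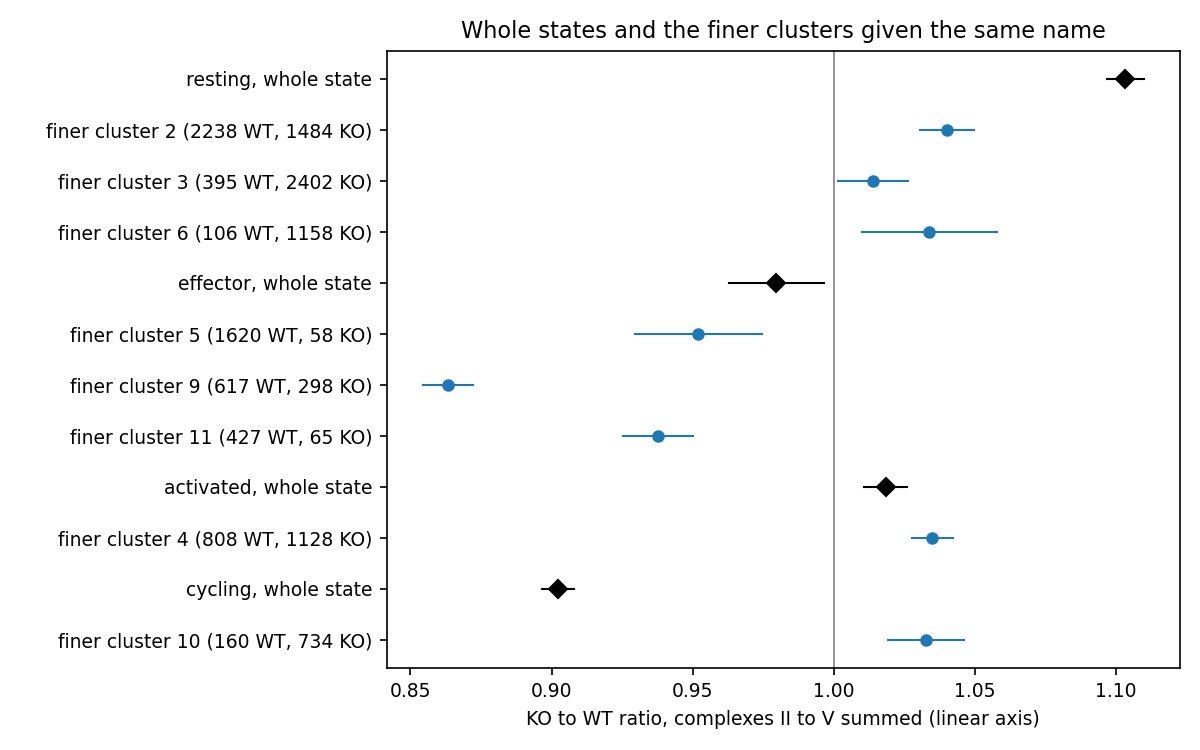
KO to WT ratio (linear axis) of the 47 genes summed, for 4 whole T cell states (black diamonds) and for the finer clusters that received the same name (blue circles), which need not hold the same barcodes, with counting intervals. The resting ratio of the whole state lies to the right of all 3 of its finer clusters, and the cycling ratio lies below 1 for the whole state and above 1 in finer cluster 10.

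In effector Treg-like barcodes, where KO had only 92 barcodes, the ratio of complexes II to V was 0.980 (0.963 to 0.996), and 1.01 when scaled to the median gene. At the higher resolution, 3 clusters with at least 50 barcodes in each library were effector Treg-like, and they held more KO barcodes than the coarser state. Their ratios were 0.952 (0.930 to 0.975) in finer cluster 5 (1620 WT and 58 KO barcodes), 0.863 (0.854 to 0.872) in finer cluster 9 (617 and 298) and 0.938 (0.925 to 0.950) in finer cluster 11 (427 and 65). Finer clusters 9 and 11 also carried cell cycle markers raised to at least 1.5 times the median of the other clusters. These were 4 S phase and 13 G2/M markers in finer cluster 9, and 16 and 14 in finer cluster 11, so both mix effector and cycling traits. Over the whole effector state, complex IV was lower in KO, with a ratio of 0.939 (0.912 to 0.967). Complex II was at 1.08 (0.967 to 1.20), III at 1.03 (0.989 to 1.08) and V at 0.989 (0.965 to 1.01), with intervals that included 1. Of 41 members 20 were above 1 (background 45.8%) and 21 below. At least 25% higher were 5 members (background 21%), and at least 20% lower were Cox7a2l and Atp5l (background 29.2%). The 5 higher members were Cox6b2 (6 UMIs in KO), Atp5mpl, Uqcrc2, Sdhd and Atp5b.

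In activated Treg-like barcodes the ratio was 1.02 (1.01 to 1.03), with complex II at 1.09 (1.04 to 1.15), III at 1.02 (1.00 to 1.04), IV at 0.995 (0.982 to 1.01) and V at 1.03 (1.02 to 1.04). Here 27 of 42 members were above 1 (background 41.3%), 5 were at least 25% higher (background 12.6%) and again Cox7a2l and Atp5l were the 2 at least 20% lower (background 24%). The 5 were Cox6a2, Cox6b2, Uqcrc1, Sdhc and Atp5mpl. Uqcr10 was 0.818 (0.784 to 0.855), the lowest of the remaining members.

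In S-phase-like cycling T barcodes the summed nuclear subunit transcripts were lower in KO, with a ratio of 0.902 (0.897 to 0.908). Complex IV had the lowest ratio at 0.864 (0.855 to 0.873), followed by V at 0.915 (0.907 to 0.923) and III at 0.941 (0.926 to 0.957), whereas complex II was 1.00 (0.962 to 1.04). Of 41 members 11 were above 1 (background 53.1%) and 30 below, and the median member ratio was 0.909 against 1.02 for all genes. At least 20% lower were 4 members (background 17.7%), which were Atp5l at 0.549, Cox7a2l at 0.647, Atp5g3, another c subunit gene, at 0.746 and Uqcrb at 0.758. At least 25% higher were Cox6b2 and Atp5mpl (background 20.2%). This direction turned with the finer cluster that carried the name. In finer cluster 10, the cluster named S-phase-like at the higher resolution (160 WT and 734 KO barcodes), the ratio was 1.03 (1.02 to 1.05) and 28 of 41 members were above 1, beside 49.1% of all genes. Finer cluster 11 (427 WT and 65 KO barcodes), named effector Treg-like, also had all 16 S phase markers raised. Its summed ratio, given above, was below 1, and 13 of 40 members were above 1, beside 46.6% of all genes. The coarser cycling cluster differed in make-up between the libraries. Its leading genes included the effector marker Cxcr3, at 94.2 CPM in WT and 4.44 CPM in KO. Of 15 effector Treg markers 14 were lower in KO, and they summed to 5216 CPM in WT and 1660.2 CPM in KO. The 16 S phase markers, of which 15 were lower in KO, summed to 15116 CPM in WT and 8106 CPM in KO. This cluster also had 14 G2/M markers raised, so it mixes S and G2/M traits. The G2/M markers did not share one direction. Top2a was at 1030 CPM in WT and 1214 CPM in KO, and Cenpf at 396 and 524 CPM. Mki67 was at 880 CPM in WT and 726 CPM in KO, and Plk1 at 105 and 92.4 CPM. Haemoglobin made up 0.0445% of its WT and 0.154% of its KO UMIs. All 12 erythroid markers were detected, with summed levels of 462 CPM in WT and 1554 CPM in KO. The part of these in the result was not tested.

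Over all T-lineage barcodes the ratio of complexes II to V was 0.963 (0.960 to 0.966), with 16 of 43 members above 1 (background 41.7%), and the sum was level when scaled to the median gene, at 1.00. At least 25% higher were Cox6a2, Cox6b2 and Atp5mpl (background 13.8%), and at least 20% lower were Atp5l and Cox7a2l (background 24.7%). States made up different shares of each library, so this pooled value mixes state and genotype.

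A few members held one direction in nearly every T-lineage group, whatever the sum of their complex did. Their number was small and near the share over all genes that is given beside it. Across the 4 named states and clusters 2 and 7, 39 members had enough UMIs in all 6 groups. Cox7a2l was the 1 member whose interval lay below 1 in all 6 (background 1.19% of 2100 genes), and Atp5l lay below 1 in 5 of 6 (background with at least 5 groups, 4.24%). Uqcrc1, Uqcrc2 and Atp5mpl lay above 1 in 5 of 6 (background 5.05%). The group whose interval included 1 was cluster 7, with only 90 KO barcodes, for Atp5l, Uqcrc1 and Atp5mpl, and cluster 2, with 180 WT barcodes, for Uqcrc2.

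Cox7a2l was at 465 CPM in WT and 261 CPM in KO in effector barcodes with a ratio of 0.561 (0.483 to 0.647), at 322 CPM in WT and 212 CPM in KO in activated barcodes with a ratio of 0.659 (0.619 to 0.701) and at 307 CPM in WT and 199 CPM in KO in cycling barcodes with a ratio of 0.647 (0.613 to 0.684). The KO level was the lower one each time. In finer cluster 2, the resting cluster that held most WT barcodes, its ratio was 0.975 (0.934 to 1.02), so the difference was not detectable there, while it was 0.667 (0.627 to 0.710) in finer cluster 3 and 0.737 (0.660 to 0.827) in finer cluster 6.

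Atp5l was at 666 CPM in WT and 385 CPM in KO in effector barcodes with a ratio of 0.578 (0.512 to 0.650), at 565 CPM in WT and 374 CPM in KO in activated barcodes with a ratio of 0.662 (0.632 to 0.694) and at 611 CPM in WT and 335 CPM in KO in cycling barcodes with a ratio of 0.549 (0.527 to 0.572). It was also lower in KO in finer clusters 2, 3 and 6, with ratios of 0.814, 0.656 and 0.796. Cycling barcodes held 1.16 (1.12 to 1.20) times the resting level of Atp5l in WT and 0.810 (0.779 to 0.842) times in KO. Beside its own gene body the annotation places Gm30934 on the opposite strand, with 11 UMIs in WT and 3 in KO T-lineage barcodes.

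Atp5mpl was at 325 CPM in WT and 430.0 CPM in KO in activated barcodes with a ratio of 1.32 (1.2522 to 1.40) and at 295 CPM in WT and 377 CPM in KO in cycling barcodes with a ratio of 1.28 (1.22 to 1.34). Uqcrc1 was at 170.0 CPM in WT and 226 CPM in KO in activated barcodes with a ratio of 1.33 (1.23 to 1.43) and at 192 CPM in WT and 223 CPM in KO in cycling barcodes with a ratio of 1.16 (1.10 to 1.23). Uqcrc2 had ratios of 1.32 (1.10 to 1.58), 1.20 (1.11 to 1.30) and 1.22 (1.13 to 1.31) in effector, activated and cycling barcodes. Transcripts of the 2 core proteins of complex III were therefore higher in KO also in cycling barcodes, where the sum of complex III was lower.

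The kept barcodes also held 2 other lineages with enough barcodes. In neutrophil or granule-like barcodes (197 WT and 195 KO) Cox7a2l had a ratio of 1.13 (1.03 to 1.2505) and Atp5l one of 0.960 (0.894 to 1.03), whereas Atp5mpl was at 210.5 CPM (586 UMIs) in WT and 351 CPM (905 UMIs) in KO, a ratio of 1.67 (1.50 to 1.85), and Uqcrc1 had one of 1.39 (1.23 to 1.58). The summed ratio of complexes II to V was 1.14 (1.12 to 1.15) there. In erythroid-like barcodes (296 WT and 554 KO) the sum was 0.782 (0.771 to 0.792), with Atp5l at 0.721 (0.666 to 0.781), Cox7a2l at 0.859 (0.766 to 0.963), Uqcrc1 at 1.01 (0.894 to 1.14) and Atp5mpl at 1.02 (0.917 to 1.13). The KO excess of Uqcrc1 and Atp5mpl was thus also present in granule-like barcodes, and the deficit of Atp5l also in erythroid-like barcodes, where 39 of 41 members were below 1, only 24.1% of all genes were above 1 and the median over all genes was 0.809.

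**Figure D4:**
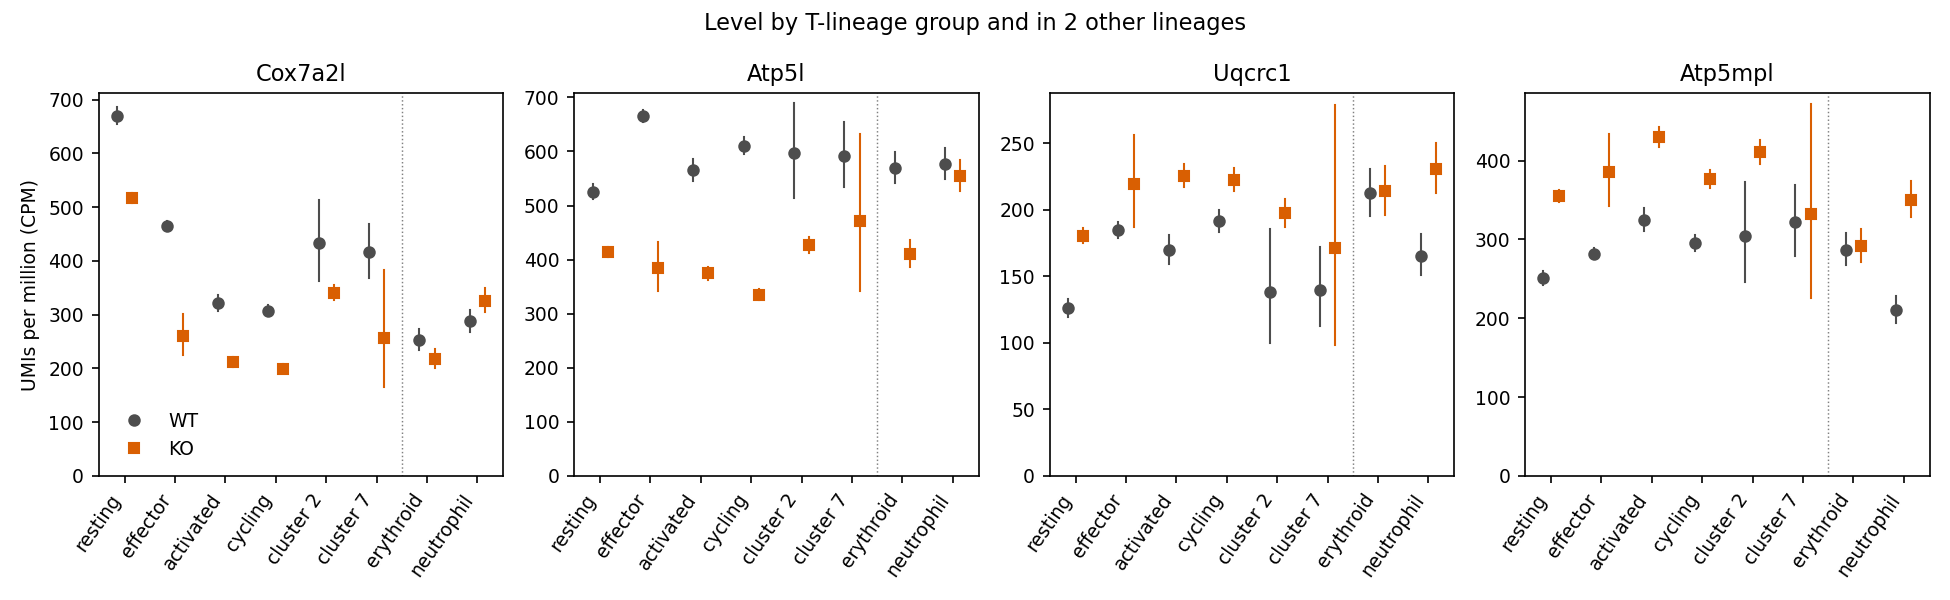
Level (CPM, linear axis from 0) of Cox7a2l, Atp5l, Uqcrc1 and Atp5mpl in 6 T-lineage groups and, right of the dotted line, in erythroid-like and neutrophil or granule-like barcodes. Grey circles are WT, orange squares KO, and bars are exact Poisson intervals of single libraries. In the 6 T-lineage groups the KO squares lie below the WT circles for Cox7a2l and Atp5l and above them for Uqcrc1 and Atp5mpl.

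The promoters of 4 members are printed because these genes differ in direction, Uqcrc1 being higher in KO, Cox7a2l and Atp5l lower, and Sdha without a detectable difference in resting barcodes. Each run holds 250 bases before and 50 after the start site, from RefSeq on GRCm38.p6, read along the gene. The Cox7a2l window lies at the start of its protein-coding transcripts (83514330 in GENCODE), inside the gene range given above, which reaches to the start of a transcript of the processed type at 83517330. Capitals mark matches to the palindromic motif of nuclear respiratory factor 1 (NRF1), a factor known for its many targets among respiratory genes.
Uqcrc1 promoter (chr9:108936398-108936697, plus strand): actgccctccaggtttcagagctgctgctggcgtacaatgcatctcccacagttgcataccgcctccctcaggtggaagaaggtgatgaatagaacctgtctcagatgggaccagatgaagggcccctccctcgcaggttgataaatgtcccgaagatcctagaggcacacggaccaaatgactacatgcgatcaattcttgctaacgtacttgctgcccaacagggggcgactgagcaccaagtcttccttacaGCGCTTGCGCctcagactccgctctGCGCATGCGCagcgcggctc
Cox7a2l promoter (chr17:83514284-83514583, minus strand): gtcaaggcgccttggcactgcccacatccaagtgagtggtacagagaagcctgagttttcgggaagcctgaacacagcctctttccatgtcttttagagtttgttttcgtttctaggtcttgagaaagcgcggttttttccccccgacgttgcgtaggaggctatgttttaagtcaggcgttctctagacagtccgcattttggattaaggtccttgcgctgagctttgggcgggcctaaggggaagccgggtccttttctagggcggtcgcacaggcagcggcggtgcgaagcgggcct
Atp5l promoter (chr9:44920693-44920992, minus strand): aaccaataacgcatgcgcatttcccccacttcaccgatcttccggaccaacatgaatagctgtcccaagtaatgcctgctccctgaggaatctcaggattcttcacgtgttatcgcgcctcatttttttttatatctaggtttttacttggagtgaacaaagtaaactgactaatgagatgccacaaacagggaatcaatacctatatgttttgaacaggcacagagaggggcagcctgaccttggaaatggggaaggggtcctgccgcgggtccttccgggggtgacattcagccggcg
Sdha promoter (chr13:74350191-74350490, minus strand): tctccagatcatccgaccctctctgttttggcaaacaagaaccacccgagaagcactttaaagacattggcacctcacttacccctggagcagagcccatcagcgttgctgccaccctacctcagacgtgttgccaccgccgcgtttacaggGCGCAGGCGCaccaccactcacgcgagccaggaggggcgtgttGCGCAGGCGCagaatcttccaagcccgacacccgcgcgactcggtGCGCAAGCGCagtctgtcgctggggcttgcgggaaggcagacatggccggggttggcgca
Uqcrc1 held 2 matches and Sdha 3, and none was in the windows of Cox7a2l and Atp5l. A promoter was found for 35 of the 47 members. The NRF1 motif was in 10 of them (28.6%) and in 5.19% of all 27025 genes with such a window, a gene with several windows counting once. CCGGAAGT, the ETS motif, was in 4 members (11.4%) and 4.31% of all genes, and the YY1 motif was in 1 member (2.86%) and 1.77% of all genes. Both strands were searched and overlapping matches were allowed. The 10 members with the NRF1 motif had resting ratios from 0.955 for Sdha to 1.43 for Uqcrc1, and 2 of the 3 c subunit genes (Atp5g2 and Atp5g3) held it.

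Several subunits exist as isoforms from separate genes, and their make-up differed between states and between libraries. Atp5g1, Atp5g2 and Atp5g3 encode the same mature c subunit behind different import sequences. Atp5g1 gave 28.0% (27.2 to 28.8) in WT and 28.3% (27.7 to 28.8) in KO of their UMIs in resting barcodes, and 40.8% (39.9 to 41.8) in WT and 39.9% (39.3 to 40.6) in KO in activated barcodes. The activated share was the higher one in both libraries, and the intervals of the genotypes overlapped in both states. Atp5g3 gave 28.0% (27.2 to 28.8) in WT and 25.2% (24.7 to 25.7) in KO in resting and 29.0% (28.4 to 29.7) in WT and 23.6% (23.0 to 24.2) in KO in cycling barcodes, with Atp5g2 higher in KO instead, at 39.1% in WT and 45.8% in KO in cycling barcodes.

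Among the COX7A genes, Cox7a2 is the form most tissues use and Cox7a1 the heart and muscle form. Cox7a2l gave 69.6% (68.7 to 70.5) in WT and 58.7% (57.9 to 59.4) in KO of the UMIs of the 3 genes in resting barcodes, 52.4% (51.7 to 53.2) in WT and 33.3% (29.4 to 37.3) in KO in effector, 44.3% (42.8 to 45.9) in WT and 31.5% (30.5 to 32.6) in KO in activated and 37.7% (36.7 to 38.8) in WT and 28.3% (27.3 to 29.3) in KO in cycling barcodes. Its share was lower in KO in each state and lower outside the resting state in each library. Nearly all of the rest was Cox7a2. It was at 292 CPM in WT and 363 CPM in KO in resting barcodes, a ratio of 1.24 (1.19 to 1.30), and had a ratio of 0.996 (0.959 to 1.03) in cycling barcodes. Cox7a1 gave under 1% of the group in all 4 states, with 70 UMIs in WT and 69 in KO T-lineage barcodes.

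**Figure D5:**
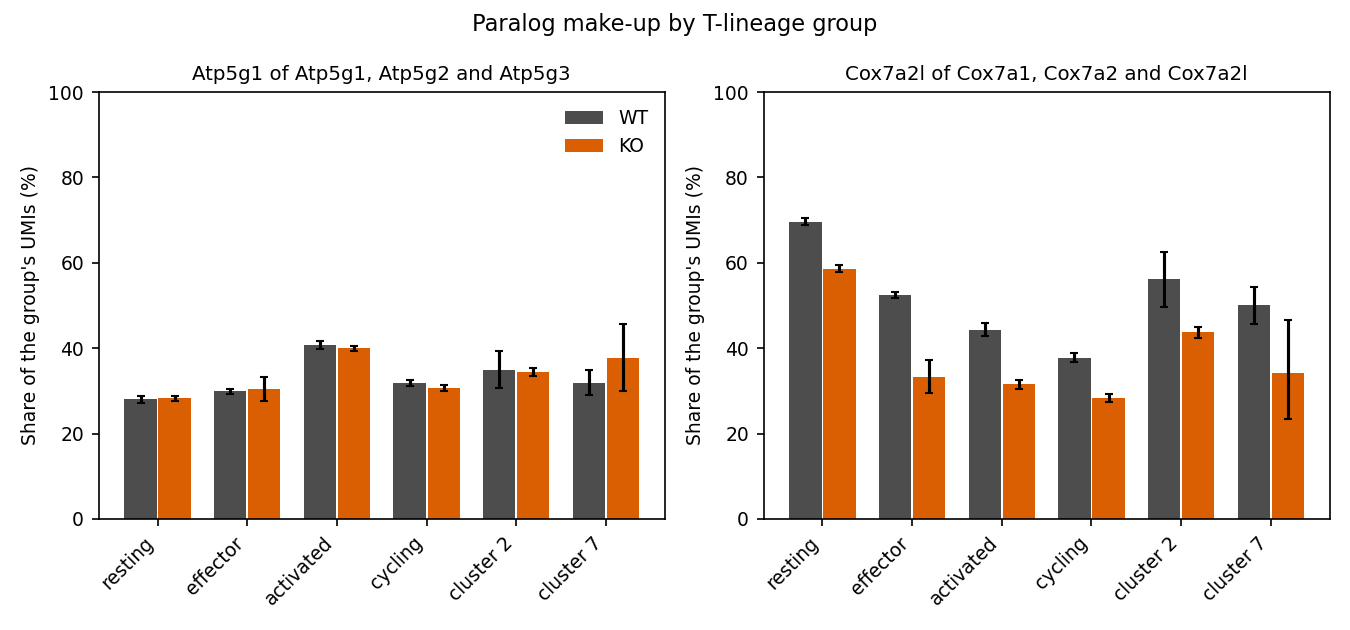
Share (%) of the UMIs of a paralog group that came from Atp5g1 (left) and from Cox7a2l (right) in 6 T-lineage groups, with WT in grey, KO in orange and exact binomial intervals. The Atp5g1 share is near 28% in resting and near 40% in activated barcodes in both libraries, and the Cox7a2l share is lower in KO in every group shown.

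Tissue-restricted complex IV isoforms were rare, and 2 of them, Cox6b2 and Cox6a2, differed between libraries. Cox6b2 gave 0.959% (0.845 to 1.09) in WT and 2.33% (2.15 to 2.53) in KO of the Cox6b1 and Cox6b2 UMIs over all T-lineage barcodes, and was at 5.15 CPM (250 UMIs) in WT and 11.1 CPM (582 UMIs) in KO, a ratio of 2.15 (1.85 to 2.51). In activated barcodes it was at 2.89 CPM (16 UMIs) in WT and 12.7 CPM (140 UMIs) in KO, a ratio of 4.39 (2.61 to 7.88), which was 1.75 at the higher clustering resolution and 1.96 within finer clusters. In cycling barcodes its ratio was 2.60 (1.90 to 3.60). Its level was higher in erythroid-like barcodes, at 187 CPM (500 UMIs) in WT and 107 CPM (270 UMIs) in KO, and was the lower one in KO there. The 12 erythroid markers summed to 359.9 CPM in WT and 799 CPM in KO activated barcodes, with none at 0, and to 532 CPM in WT and 3226 CPM in KO over all T-lineage barcodes. Their part in the Cox6b2 ratios was not tested.

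Cox6a2, the heart and muscle form of subunit 6a (ENSMUSG00000030785, chromosome 7, 128205435 to 128206387, minus strand), had 1 UMI in WT and 54 UMIs in KO activated barcodes, a ratio of 27.1 with a counting interval from 4.66 to 1089. It was 4.21 at the higher clustering resolution and 4.38 within finer clusters. The 54 UMIs came from 18 of 1296 KO barcodes, and 1 barcode held 9 of them. Of these 18 barcodes 14, with 49 UMIs, fell into finer cluster 17 (3 WT and 173 KO barcodes), whose 10 leading genes included Phlda3, Cdkn1a, Trib3, Nupr1 and Atf5. This grouping was seen after the values were known. Phlda3 and Cdkn1a are known targets of p53, and Trib3, Nupr1 and Atf5 are known from the integrated stress response. Cox6a2 was at 24.8 CPM (69 UMIs) in WT and 47.3 CPM (122 UMIs) in KO in neutrophil or granule-like barcodes, a ratio of 1.91 (1.41 to 2.60), which is above its level in T-lineage barcodes (0.268 CPM in WT and 2.14 CPM in KO). The 11 granule markers summed to 252 CPM in WT and 193 CPM in KO activated barcodes, where 3 of the 11 were higher in KO. Over all T-lineage barcodes they summed to 343 and 857 CPM. Their part in the Cox6a2 ratios was not tested. The opposite-strand neighbour Itgad, which overlaps Cox6a2, had no UMI in activated barcodes of either library.

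The remaining isoforms were at or near 0. Cox7b2, Cox8b and Cox8c had no UMI in T-lineage barcodes of either library. For 0 UMIs among the T-lineage total, a count of up to 3 is allowed, which is 0.0618 CPM in WT and 0.0572 CPM in KO. Cox4i2, the lung and hypoxia form, had 9 UMIs in WT and 13 in KO, against 53559 and 52166 for Cox4i1. Cox4i1, Cox6a1, Cox6b1, Cox7b and Cox8a were thus the main source of UMIs in their isoform groups. In resting barcodes the ratio was 1.24 (1.19 to 1.30) for Cox6a1, 1.11 (1.07 to 1.15) for Cox6b1, 1.08 (1.05 to 1.12) for Cox6c, 1.07 (1.03 to 1.11) for Cox7b and 1.08 (1.05 to 1.12) for Cox8a, while Cox4i1 was at 1.01 (0.991 to 1.04). Uqcrhl, Cox6c2 and Atp5if1 were not among the symbols of this annotation.

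Genes that the symbol rule leaves out but that belong to the same machines did not share one direction. Cyc1, the cytochrome c1 subunit of complex III, and Cycs, the electron carrier cytochrome c, had ratios of 1.24 (1.16 to 1.33) and 1.2498 (1.18 to 1.32) in resting barcodes. Ndufa4, a subunit of complex IV despite its name, was at 319 CPM (3664 UMIs) in WT and 145 CPM (3045 UMIs) in KO, a ratio of 0.456 (0.435 to 0.479) that was lower than that of any member in resting barcodes, and at 0.331 (0.312 to 0.351) in activated barcodes. The study picked Ndufa4 on these libraries as well. It also reports lower Ndufa4 RNA in the other mice named for Atp5l, and Zfp335 binding at the Ndufa4 promoter in WT Tregs. It reports no such binding for Atp5l. Overexpressed Ndufa4 did not restore the frequency of effector Tregs marked by ICOS in the study's Zfp335-deficient cells, whereas Hadha did. The mitochondrially encoded partners were mostly on the other side from the nuclear genes in resting barcodes, with mt-Co1 at 0.816 (0.808 to 0.825), mt-Co3 at 0.930, mt-Atp6 at 0.928 and mt-Atp8 at 0.636, while mt-Cytb was at 1.06. These mt- levels were read in barcodes chosen to have at most 5% mt- UMIs, which trimmed the libraries unequally.

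Of 33 assembly factors, 32 had enough UMIs in resting barcodes. Of these 21 were above 1, 4 were at least 25% higher and 5 at least 20% lower, beside backgrounds of 8.15% and 29.5%. The 4 higher were Sco2 and Cox11, copper factors of complex IV, at 1.36 (1.17 to 1.59) and 1.32 (1.04 to 1.68), Lyrm7, which matures the Rieske protein, at 2.10 (1.30 to 3.52), and Sdhaf3, a complex II factor, at 1.39 (0.984 to 1.99). The 5 lower included Lrpprc, which stabilises mitochondrial messages, at 0.695 (0.590 to 0.821) and Atpaf1, which helps to build the ATP synthase head, at 0.788 (0.663 to 0.937). The genes named Nduf, mostly of complex I, counted 41 of 46 above 1, with a median ratio of 1.12.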

How the data were processed

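Splenic YFP+ Tregs of 1 WT and 1 KO library were measured by droplet single-cell RNA sequencing. The authors deposited filtered matrices of raw UMI counts per gene and barcode, made per the submitters' processing notes with Cell Ranger 5.0.1 on mm10. Strand use in counting is not given in the sources used here. The filter kept barcodes from 300 genes upward in which mt- UMIs made up 5% or less. Doublets were not removed, except in an alternative with Scrublet scores (scanpy 1.11.5). Kept barcodes were clustered with the Leiden method of igraph 0.11.9 (2000 variable genes, 30 principal components, 20 neighbours, resolution 0.5). Before variable genes were chosen, 230 genes were set aside, namely all members, Nduf, mitochondrial, haemoglobin and ribosomal protein genes and a few others, Zfp335 among them. A cluster was named from fixed markers among its 10 leading genes, under a naming rule written once the data had been looked at.

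UMIs were summed per library and state and divided by the sum's total. Poisson intervals of levels and conditional binomial intervals of ratios are exact (scipy 1.17.1), at 95%. Only the ratio intervals were tried on simulated counts. Those counts were drawn from the Poisson model that the intervals assume, so the trial cannot speak to variation between barcodes or libraries. Sums of 1 library per genotype allow no test, so genes were counted when at least 25% higher or 20% lower in KO among those with at least 50 UMIs over both libraries. Named in full were the highest and lowest member of each complex in resting barcodes, members past that fold there or over all T-lineage barcodes, complex II, the paralog groups, Atp5l and lists of companions. Further members are named where a state or group singled them out, after their values were seen. Members, lists and markers were chosen with earlier results of these data known. Alternatives changed the mitochondrial and gene filters, doublets, scaling, denominator, weighting of barcodes, depth, clustering and UMI minimum, and left out shared barcodes. Coordinates are from GENCODE vM21.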

Additional observations from a re-analysis of the deposited data

Results flagged for a closer look

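The KO to WT ratio of the summed nuclear subunit transcripts stood on opposite sides of 1 in 2 states of the same libraries. The KO to WT ratio of complex III was 1.16 in resting Treg-like and 0.941 in S-phase-like cycling T barcodes. Complex IV was at 1.06 and 0.864, complex V at 1.12 and 0.915, and complexes II to V together at 1.10 and 0.902. Of 41 members, 19 had an interval above 1 in resting and below 1 in cycling barcodes, among them Uqcrb, Uqcr10, Cox5a, Cox5b and Atp5g1. The same count over all genes was not made, so whether 19 is many for such genes is not known. The median ratio over all genes was 0.924 in resting and 1.02 in cycling barcodes. The difference between the states was not tested, since there was 1 library per genotype. Within finer clusters, an alternative chosen after seeing the data, the ratio of complexes II to V in cycling barcodes was 0.983.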

How the results depend on the processing

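No paired analysis was possible because there was 1 library per genotype. With 1 library each, intervals cover counting error only and leaving out a replicate was not run. No cluster was named G2/M-like, so that state has no value. Removing doublets, at least 1000 genes and leaving out shared barcodes moved no summed ratio given by state beyond its counting interval and no count of members by 1.5 times. A minimum of 1 UMI in each library or of 200 UMIs, run for the counts, moved none by 1.5 times. For single members, 166 alternative values stayed within the counting interval, 44 moved beyond it, and 1 that was past the 25% or 20% limit turned direction. The median gene ratio differed from 1 by -0.08 on the log2 scale in resting, -0.04 in effector, -0.06 in activated, 0.02 in cycling and -0.06 in all T-lineage barcodes. The cause of the moves below was not tested.

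Scaled to the median gene, resting complexes II, III, IV and V were 1.23, 1.22, 1.12 and 1.18, and complexes II to V were 1.01 in effector (reversed), 1.06 in activated, 0.887 in cycling and 1.00 in all T-lineage barcodes (reversed). With at most 3% mt- UMIs, resting III, IV and V were 1.13, 1.05 and 1.10, and II to V were 1.03 in effector (reversed), 1.01 in activated and 0.949 in all T-lineage barcodes. Without abundant classes in the denominator, II to V were 1.04 in activated, 0.912 in cycling and 0.991 in all T-lineage barcodes. As the mean of single barcodes, resting III, IV and V were 1.18, 1.08 and 1.13, II to V were 0.950 in effector, 1.03 in activated, 0.915 in cycling and 1.02 in all T-lineage barcodes (reversed), and 9 members were past the fold in the last, against 5.

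Thinned to 1000 UMIs, resting II, IV and V were 1.23, 1.10 and 1.13, II to V were 0.902 in effector, 1.04 in activated, 0.917 in cycling and 1.04 in all T-lineage barcodes (reversed), 16 members were past the fold in effector and 8 in all T-lineage barcodes, and resting Cox6b2 reversed to 0.899. At Leiden resolution 1.0, resting V was 1.13, II to V were 0.944 in effector, 1.03 in activated and 1.03 in cycling barcodes (reversed), and 10 members were past the fold in cycling barcodes, against 6. Chosen after seeing the data, the ratio within finer clusters was 1.11, 1.08, 1.00 and 1.03 for resting II, III, IV and V, and 1.03, 0.983 and 0.994 for II to V in activated, cycling and all T-lineage barcodes, with 6 resting members past the fold, against 11. Without clusters 2, 7 and 14, also chosen after seeing the data, II to V were 0.957 in all T-lineage barcodes. Shares of all genes past the fold, higher then lower, were 12.2% and 30% for the mean of single barcodes in all T-lineage barcodes. Thinned, they were 26% and 34.5% in effector and 13.3% and 26.7% in all T-lineage barcodes. At Leiden resolution 1.0 they were 18.7% and 22.1% in cycling barcodes. Within finer clusters they were 8.39% and 21.3% in resting barcodes.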
